A study of Mus musculus with 36 samples.

Results

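Accessible chromatin was described over 4 genes of calcium handling in the heart muscle cell, Ryr2, Pln, Casq2 and Cacna1c, in the border zone of a myocardial infarction and in sham-operated ventricle. The members are all regions of the authors' lists that overlap a fixed window around each gene on the mm9 mouse genome. The windows are chr13:11600000-12250000 for Ryr2, chr10:53000000-53100000 for Pln, chr3:101870000-101970000 for Casq2 and chr6:118500000-119180000 for Cacna1c. Of 122759 regions listed over the 3 days, 604 lay in these windows. Ryr2 had 330 of them, Pln 21, Casq2 30 and Cacna1c 223. The windows were set by position, with earlier results of these data known.

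The study profiled nuclei of the left ventricle of FVB/N mice by ATAC-seq, in which a transposase cuts accessible DNA and adds sequencing adapters. For each of days 4, 7 and 14 there was 1 library from the rim of living muscle around the infarct (the border zone) and 1 from the left ventricle of sham-operated mice, 6 libraries in all. Another 30 samples of the series are RNA-seq and were not analysed here. On day 4, border zone and sham nuclei both came from mice described as Cdh5-Cre; Sun1-sfGFP, without tamoxifen in the treatment text. Cdh5 is an endothelial gene, so this Cre is not a cardiomyocyte driver. The text for these libraries names both GFP sorting and a pulldown with PCM1, a protein around cardiomyocyte nuclei. On days 7 and 14, border zone and sham nuclei came from Myh6-MerCrMer;nTnG mice, whose Cre is driven by a promoter of heart muscle cells and is switched on by tamoxifen. All of these mice received tamoxifen at 20 mg/kg before surgery, and 50000 nuclei per sample were sorted by GFP. Neither the age of the mice nor whether libraries came from separate or pooled animals is stated in the labels.

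Each heartbeat starts with calcium that enters through the L-type channel, whose pore is the Cacna1c protein. This calcium opens the Ryr2 channel, which releases the store of the sarcoplasmic reticulum. Casq2 binds calcium inside the store, and Pln holds back the pump that refills it until Pln is phosphorylated. The surviving muscle beside an infarct is known for altered calcium cycling.

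The promoters of the 3 genes that lie in the store membrane or lumen are shown as the reference sequence at the starts of the genes whose summed ratios stood on both sides of 1 over the days (Ryr2 and Casq2) or were lower on every day (Pln). They are RefSeq sequences of 300 bases that span the start site, from build GRCm38.p6, and cannot be placed on the mm9 regions here. Capitals mark matches, on either strand, to a MEF2 site, a CArG box, GATA (these 4 letters after A or T and before A or G), MCAT (CATTCC) or AP-1 (TGANTCA).
Ryr2, chr13:12106896-12107195, minus strand: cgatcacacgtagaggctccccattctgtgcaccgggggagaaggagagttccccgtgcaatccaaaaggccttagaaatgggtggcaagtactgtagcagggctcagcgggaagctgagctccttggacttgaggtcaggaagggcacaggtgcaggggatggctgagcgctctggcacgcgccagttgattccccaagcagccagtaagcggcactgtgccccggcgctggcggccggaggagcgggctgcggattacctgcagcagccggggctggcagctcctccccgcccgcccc
Pln, chr10:53337436-53337735, plus strand: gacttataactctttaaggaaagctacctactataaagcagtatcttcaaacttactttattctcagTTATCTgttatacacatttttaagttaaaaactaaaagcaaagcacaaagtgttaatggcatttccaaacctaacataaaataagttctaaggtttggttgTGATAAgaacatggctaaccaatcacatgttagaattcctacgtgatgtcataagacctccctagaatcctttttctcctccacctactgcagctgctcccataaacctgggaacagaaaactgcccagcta
Casq2, chr3:102086165-102086464, plus strand: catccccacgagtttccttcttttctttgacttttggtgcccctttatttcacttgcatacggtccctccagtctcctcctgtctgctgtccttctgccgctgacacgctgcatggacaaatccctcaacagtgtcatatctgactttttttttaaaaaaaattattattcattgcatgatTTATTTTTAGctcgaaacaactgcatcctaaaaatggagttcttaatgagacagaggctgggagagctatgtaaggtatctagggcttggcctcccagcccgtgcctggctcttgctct

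The Ryr2 promoter had a GC content of 65.3% and held none of the 5 marked motifs. The Pln promoter had a GC content of 36.0% and held 2 GATA matches, at positions -183 and -82 from the start site. A match to the letters of a TATA box (TATAAA) stood at -219 in it. The Casq2 promoter had a GC content of 44.7% and held 1 MEF2 match, at -69. Cacna1c has 3 start sites in the table. The first and the third had a GC content of 51.3% and 1 GATA match each. The second, with a GC content of 81.3%, had no match to a marked motif. Over all 32851 promoters of the table, 29.8% held a GATA match, 3.19% a MEF2 match and 13.6% a TATAAA match at any position. A CArG box was in 1.63%, MCAT in 14.7% and AP-1 in 7.81%. E-boxes (CANNTG) were in every one of the 6 promoters of the 4 genes and in 72.3% of all. None of the matches named in the 3 printed promoters overlapped another motif. These matches are letters in a window and not measured binding.

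The listed value of a region is its number of sequenced tags, with border zone tags scaled to the sham library of the same day in all but 1 list. A region was listed as differential when the scaled tags differed by a set fold, above a tag minimum. The smallest fold among differential regions was 1.7502 on day 4 and 1.7501 on day 14. Days 4, 7 and 14 had minima of 35, 50 and 150 tags for the larger value. Regions under the minimum are not listed and have no measured value. On day 4 the listing leaned on the border zone library, since among all 37653 regions without a differential call 172 had border zone tags under 35 and 4519 had sham tags under 35. The same counts under 50 tags were 4441 and 3000 of 21128 on day 7, and under 150 tags 4111 and 4558 of 32714 on day 14, border zone before sham. Low-tag regions of day 4 are therefore listed more readily when the border zone is higher. With 1 library per condition and day, nothing was tested within a day, and 95% intervals cover counting error only. In pooled nuclei, fewer nuclei of a type and less accessibility per nucleus cannot be told apart. The mouse line, the isolation of nuclei and the aligner all change between day 4 and the later days, so a difference between these days and a difference between preparations cannot be told apart. In loci listed on all days the border zone libraries had 3818860, 1978676 and 7093972 tags, in the order of the days, against 4276250, 3094173 and 10239395 sham tags. The total depth of the libraries is unknown here. Markers of cardiomyocytes, endothelial cells and other cells outside the 4 genes were not located, because no mm9 annotation was used here. For the same reason regions were not assigned to exons, introns or promoters, and other genes of the calcium cycle are not analysed here.

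Ryr2, the release channel, had the widest range of summed ratios of the 4 windows. Its regions were mostly higher in the border zone on day 4 and all lower on day 7, and 81 of 87 were lower on day 14. On day 4, 38 of its 166 regions (22.9%) were listed as higher in the border zone, against 12.2% of all regions of that day. Sham-higher were 3 (1.81%), against 7.37% of all. Among the 97 Ryr2 regions of day 4 with at least 110 tags in both libraries together, a limit chosen after the data were seen, 12 (12.4%) were border zone-higher and 0 sham-higher, against 5.09% and 1.69% of all such regions. A ratio above 1 was found in 81 of the 97 (83.5%), against 31.7% of all. On day 7, 54 of 77 (70.1%) were sham-higher, against 22% of all, and 0 were border zone-higher, against 17.5% of all. On day 14, 26 of 87 (29.9%) were sham-higher, against 6.75% of all. Border zone-higher on day 14 were 3 (3.45%), against 13.4% of all.

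**Figure D1:**
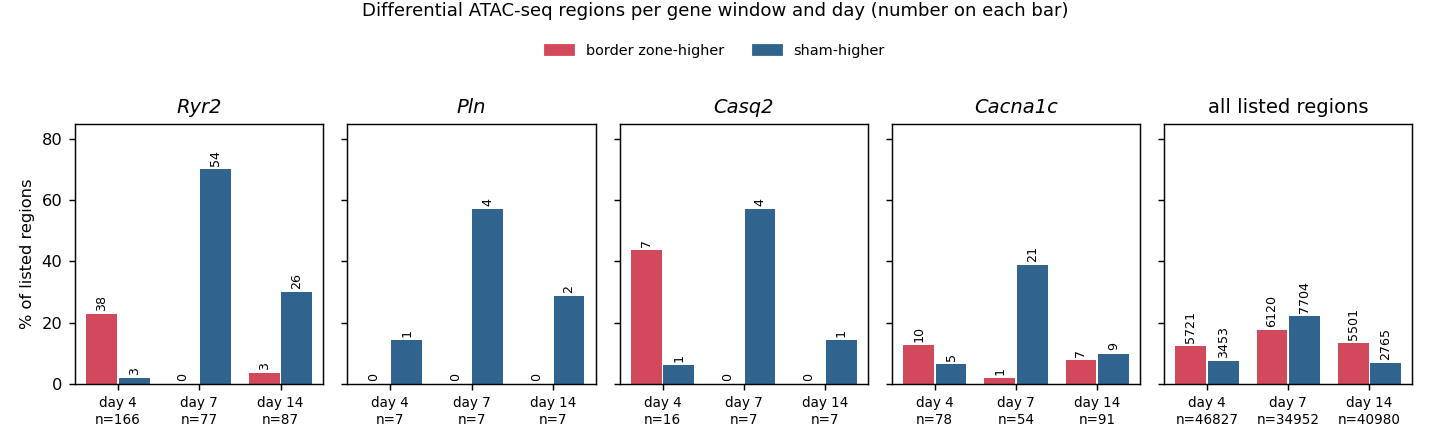
Share of the listed regions of each gene window that the authors list as differential, in percent of the window's regions of the day, with the number of regions on each bar. Red bars are border zone-higher and blue bars sham-higher regions. The last panel gives all regions of the day. In the Ryr2 window 22.9% of regions were border zone-higher on day 4, and 70.1% were sham-higher on day 7.

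Summed over the Ryr2 window, day 4 had 22185 listed border zone tags and 17812 sham tags, a ratio of 1.25 (95% interval 1.22 to 1.27). Of the day 4 regions, 125 had no differential call, and their border zone tags are unscaled. Day 7 had 4124 and 9376, a ratio of 0.440 (0.422 to 0.458). Day 14 had 23992 and 34490, a ratio of 0.696 (0.683 to 0.708). Over all listed regions the ratios were 0.931, 0.954 and 1.01. The day 4 and the later intervals of Ryr2 lie on opposite sides of 1. The covered length differed as well, since listed regions covered 47.1% of the window on day 4, 18.9% on day 7 and 19.7% on day 14. Ryr2 sham tags per covered kb were 58.2, 76.2 and 269.

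**Figure D2:**
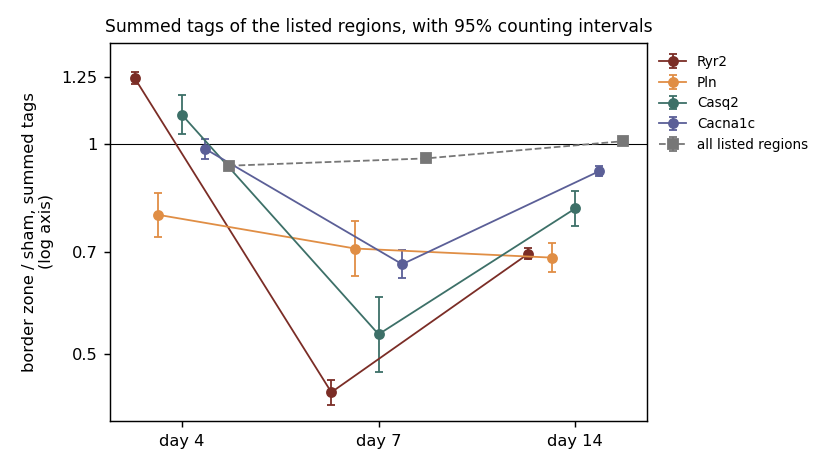
Ratio of summed listed border zone tags to summed sham tags over the regions of each window, on a log axis, by day. Bars are 95% counting intervals, and squares are all listed regions. Ryr2 had ratios of 1.25, 0.440 and 0.696 on days 4, 7 and 14, and the ratios of Pln were below 1 on each day.

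Position within the Ryr2 window went with the size of the ratio on day 4. RefSeq places Ryr2 on the minus strand, so low coordinates lie away from the start of the gene. Boundaries for the 3 stretches given here were chosen after the values were seen. In the first 100 kb of the window, 24 of 25 regions had a ratio above 1 on day 4. The border zone tags there were 4787 and the sham tags 2802, a ratio of 1.71 (1.63 to 1.79). In the next 250 kb, 84 regions gave 1.25 (1.22 to 1.29), and 21 of them were border zone-higher. The remaining 300 kb gave 1.04 (1.004 to 1.08) over 57 regions. On day 7 all 3 stretches were below 1, with ratios of 0.480 (0.422 to 0.544) at the low end, 0.599 (0.508 to 0.704) in the middle and 0.425 (0.407 to 0.445) in the high stretch. On day 14 the low end and the high stretch were below 1, at 0.705 (0.664 to 0.748) and 0.670 (0.656 to 0.683). The middle was above 1, at 1.23 (1.14 to 1.33), with 6 of 9 regions above 1 and 3 border zone-higher. The high stretch held 46 of the 54 sham-higher regions of day 7 and 63 of all 77 regions. On day 14 it held 24 of the 26 and 71 of all 87, so most sham-higher regions lay where most regions were listed.

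**Figure D3:**
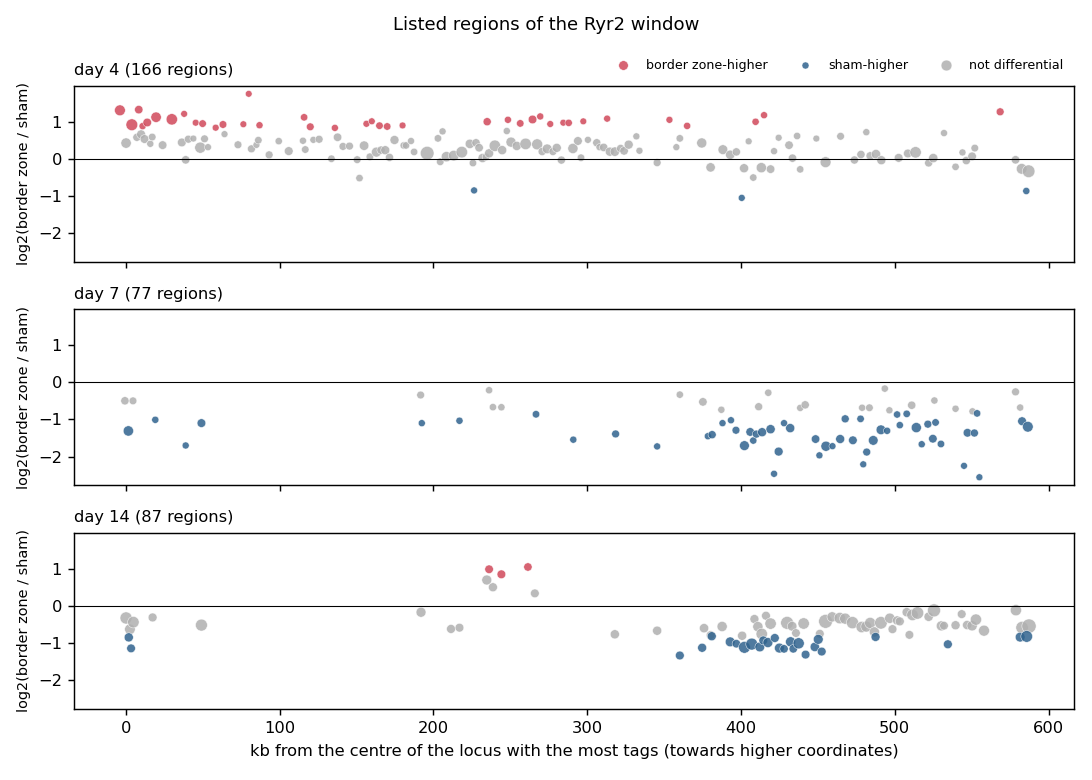
Each listed region of the Ryr2 window as log2 of border zone over sham tags, against its distance in kb from the centre of the locus with the most tags. Red points are border zone-higher, blue points sham-higher and grey points not differential. Point size grows with the number of tags. All 77 regions lie below 0 on day 7, while 140 of 166 lie above 0 on day 4.

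Single Ryr2 regions set the range of these folds. The largest border zone-higher fold was at chr13:11718251-11719250 on day 4, with 40.3 scaled border zone tags and 12 sham tags, 3.36-fold (1.73 to 7.05). The largest sham-higher fold was at chr13:12193251-12194250 on day 7, with 9.33 border zone and 55 sham tags, 5.89-fold lower in the border zone (2.79 to 14.33). Both rest on few tags. Listed Ryr2 values ran over 20.7 to 1150 border zone and 12 to 1037 sham tags on day 4. They ran over 9.33 to 224 and 50 to 513 on day 7, and over 67.2 to 1193 and 77 to 1742 on day 14.

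Regions of different days that overlap were joined into loci, so that a place can be followed over time. A locus counts as border zone-higher or sham-higher on a day when any of its regions is listed so and none the other way. Ryr2 had 172 loci, of which 45 were listed on all 3 days and 100 on day 4 alone. Of the 100, 93 had a ratio above 1 and 30 were border zone-higher, with 9004 border zone and 6547 sham tags in sum. The listing sets a part of this count, since 36 of the 100 had sham tags under the minimum of 35 and 1 had border zone tags under it. All 36 had a ratio above 1, and so did 57 of the 64 others. The share over all loci of the genome listed on day 4 alone was not computed. Among the 45 loci measured on every day, 31, 0 and 4 had a ratio above 1 on days 4, 7 and 14. The median log2 ratios were 0.15, -1.13 and -0.56, against -0.18, -0.39 and -0.12 over all 19733 such loci of the genome. Of the 45, 27 (60.0%) were above 1 on day 4 and below 1 on both later days, against 9.20% of all loci. Another 14 (31.1%) were below 1 on every day, against 44.4% of all loci. Neighbouring loci share libraries and chromatin and are not replicates.

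**Figure D4:**
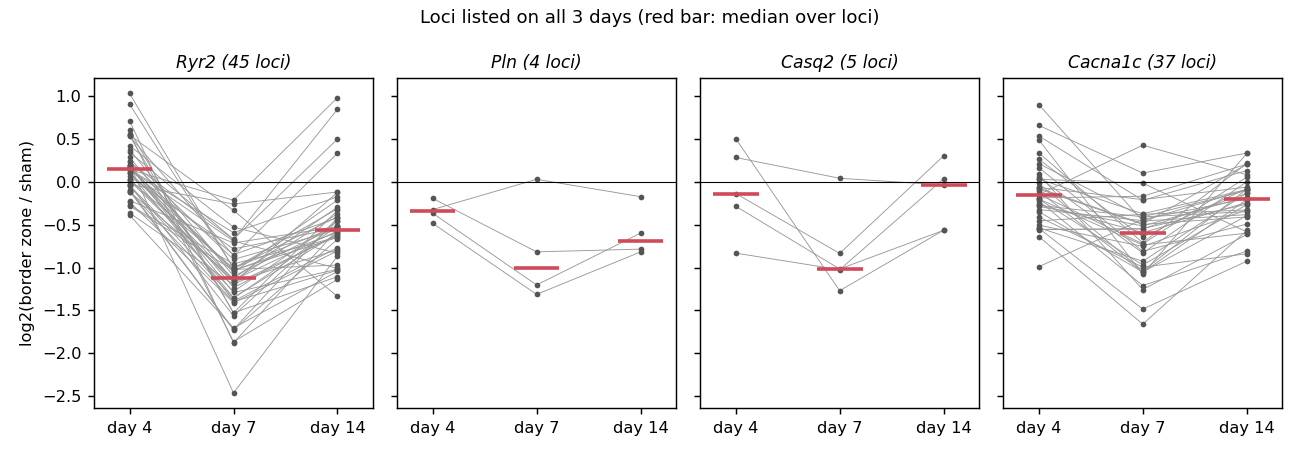
Log2 ratio of border zone to sham tags on days 4, 7 and 14 for the loci of each window that are listed on every day. Each line is 1 locus and the red bar the median over loci. In Ryr2 the medians are 0.15, -1.13 and -0.56. No Ryr2 locus lies above 0 on day 7.

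Across the 3 days, border zone was tested against sham in all 19733 loci with edgeR's quasi-likelihood test, day as a block and Benjamini-Hochberg adjustment. The test called 456 loci lower in the border zone (2.31%) and 1512 higher (7.66%). In the 4 windows it called 4 lower and 1 higher of 91 loci. Ryr2 had 2 of the lower loci, which adjoin each other in the high stretch. At chr13:12038751-12042750 the listed border zone tags of days 4, 7 and 14 were 160, 112 and 503, against 209, 365 and 1038 sham tags. The lists of all 3 days held sham-higher regions of this locus. On day 4 this was only the part at chr13:12038751-12039750, with 20.7 border zone and 43 sham tags. Over the 3 days the locus fell by 0.82 on the log2 scale (SE 0.20, edgeR adjusted p = 0.00992). At chr13:12043251-12047250 the border zone tags were 74, 92.1 and 415, against 80, 243 and 849 sham tags. The fitted log2 change was -0.68 (SE 0.21, edgeR adjusted p = 0.0419). The border zone library was the lower one on each day at both loci, and the day 4 difference was the smallest. None of the 5 calls held without day 7, without day 14 or without the block, and DESeq2 kept chr13:12038751-12042750 only (adjusted p = 0.0236). Over 9 alternatives, 2 of which left all loci unchanged, the edgeR or DESeq2 adjusted p of that locus ran from 2.29e-06 to 0.997.

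The lists gave 17 Ryr2 loci as sham-higher on at least 2 days, 15 on 2 and 2 on all 3, and 0 as border zone-higher on at least 2 days. The share of loci border zone-higher on at least 2 days was not computed over the genome. Of the 45 Ryr2 loci listed on all days, 15 (33.3%) were among the 17 sham-higher ones, against 7.99% of all such loci of the genome. Of the 17, 16 lay in the high stretch. Their border zone to sham ratios ran from 0.181 to 0.515 on day 7 and from 0.4479 to 0.6996 on day 14. The other locus with sham-higher calls on all 3 days was chr13:12223751-12226750, on day 4 for a part of it only. It had 701, 224 and 1617 border zone tags against 901, 513 and 2492 sham tags. Its fitted log2 change was -0.51 (SE 0.17, edgeR adjusted p = 0.0665). The lowest ratio on day 7 among the 17 was at chr13:12059751-12061250, with 10.5 border zone and 58 sham tags. That locus had 38 and 33 tags on day 4 and 104 and 190 on day 14.

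With day 4 left out, edgeR on days 7 and 14 called 26 of the 45 Ryr2 loci lower in the border zone and 0 higher. Over all loci it called 10.8% lower and 15.6% higher. This fit has 1 residual degree of freedom. The smallest adjusted p was at chr13:12038751-12042750, where the border zone fell by 1.07 on the log2 scale (SE 0.20, edgeR adjusted p = 2.29e-06).

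The change of the border zone effect between day 4 and the later days was tested as an interaction, chosen after the data were seen. Day 4 has 1 library per condition, so the spread comes from the difference between days 7 and 14 and from the other loci of the genome, with 1 residual degree of freedom. Over all loci edgeR called 51 lower on the later days (0.258%) and 161 higher (0.816%). In the 4 windows it called 3 lower, all in Ryr2, and 0 higher. The median interaction over the 45 Ryr2 loci was -0.87 on the log2 scale, against -0.06 over all loci. The locus with the most tags of the window, chr13:11631751-11645750, had 1607, 318 and 1580 border zone tags on days 4, 7 and 14, against 856, 639 and 2258 sham tags. The border zone was the higher library on day 4 and the lower one on both later days. Its interaction was -1.52 (SE 0.32, edgeR adjusted p = 0.00162). At chr13:11655751-11660750 the border zone tags were 496, 28.3 and 138 against 242, 57 and 172 sham tags, with an interaction of -1.48 (SE 0.38, edgeR adjusted p = 0.0192). At chr13:12061751-12064750 they were 37, 61.1 and 159 against 25, 223 and 350, with an interaction of -1.92 (SE 0.50, edgeR adjusted p = 0.0222). DESeq2 called 0 of the 32 member loci for which it gave an adjusted p. Of the 3 loci it gave an adjusted p for chr13:11631751-11645750 alone (log2 interaction -1.47, DESeq2 adjusted p = 0.0578), and its interactions for the other two were -1.47 and -1.89.

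Casq2, the calcium buffer of the store, had 16 regions on day 4 and 7 on each later day. On day 4 the border zone was higher in 7 (43.8%, against 12.2% of all regions) and lower in 1 (6.25%, against 7.37%). On day 7, 4 of 7 were sham-higher (22% of all), and on day 14, 1 of 7 (6.75% of all). No Casq2 region was border zone-higher on day 7 or 14, against 17.5% and 13.4% of all regions. The summed tags were 1968 and 1784 on day 4 (ratio 1.10, 1.03 to 1.18), 490 and 920 on day 7 (0.533, 0.471 to 0.602), and 2621 and 3241 on day 14 (0.809, 0.764 to 0.856), border zone before sham. The day 4 ratio turned to 0.904 over the 5 loci listed on all 3 days. The 8 loci listed on day 4 alone held 704 border zone and 385 sham tags, and 6 of them were border zone-higher. This share was not computed over all such loci of the genome. In 4 of the 8 the sham tags were under the minimum of 35, so they were listed through the border zone alone. Over the 8 Casq2 regions of day 4 with at least 110 tags in both libraries together the ratio was 1.04 (0.966 to 1.11), an interval that includes 1.

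The locus with the most tags in the Casq2 window, chr3:101902251-101906750, was lower in the border zone on every day. It had 764, 246 and 968 border zone tags against 930, 499 and 1432 sham tags, and a fitted log2 change of -0.40 (SE 0.17, edgeR adjusted p = 0.135). At chr3:101950251-101954250 the border zone tags were 200, 53.9 and 478, against 141, 130 and 706 sham tags. The lists gave parts of this locus as border zone-higher on day 4 and as sham-higher on both later days. Its interaction was -1.25 (SE 0.37, edgeR adjusted p = 0.0572). The largest border zone-higher fold of the window was 2.46-fold (1.50 to 4.14) at chr3:101954251-101955750 on day 4, with 59.0 and 24 tags. The largest sham-higher fold was 2.41-fold (1.68 to 3.53) at chr3:101950751-101952750 on day 7, with 53.9 and 130 tags.

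Over the 3 days edgeR called 0 of the 5 Casq2 loci and 0 of the 4 Pln loci. The unadjusted edgeR p was under 0.05 for 1 of the 5 and 2 of the 4, against 5324 of all 19733 loci. DESeq2 likewise called 0. On days 7 and 14 alone, edgeR called 2 loci lower in each of the Casq2 and Pln windows and 0 higher. Over all loci that fit called 10.8% lower and 15.6% higher.

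Pln, the inhibitor of the calcium pump, was lower in the border zone on each day. Of its 21 regions, 0 were border zone-higher, against 12.2%, 17.5% and 13.4% of all regions on days 4, 7 and 14. Of 7 regions a day, 1 was sham-higher on day 4 (7.37% of all regions), 4 on day 7 (57.1%, against 22% of all) and 2 on day 14 (28.6%, against 6.75% of all). All 7 regions had a ratio below 1 on days 4 and 14, against 26416 of 46827 and 19759 of 40980 of all regions. On day 7 it was 6 of 7, against 19440 of 34952. The summed tags were 1311 in border zone and 1656 in sham on day 4, a ratio of 0.792 (0.736 to 0.852). They were 985 and 1391 on day 7 (0.708, 0.646 to 0.775) and 3306 and 4812 on day 14 (0.687, 0.654 to 0.722). All 3 intervals lie below 1. That of day 7 overlaps both others, and those of days 4 and 14 do not overlap.

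A single Pln locus was sham-higher on more than 1 day, 1 of the 4 listed on all days (25.0%, against 7.99% of all such loci). It lay at chr10:53025251-53026250, with 73, 26.9 and 141 border zone tags against 102, 67 and 249 sham tags. Its fitted log2 change was -0.62 (SE 0.23, edgeR adjusted p = 0.0806) over the 3 days and -0.77 (SE 0.27, edgeR adjusted p = 0.023) over days 7 and 14. The locus at chr10:53043751-53046250, named after its values were seen, had 451, 177 and 671 border zone tags. The sham tags there were 581, 407 and 1015. On days 7 and 14 the border zone fell by 0.62 on the log2 scale (SE 0.19, edgeR adjusted p = 0.00736). The locus with the most tags, chr10:53098751-53100250 at the upper edge of the window, had 323, 601 and 1167 border zone tags against 404, 588 and 1315 sham tags. The border zone was lower there on days 4 and 14 and slightly higher on day 7. The largest sham-higher fold of Pln was 3.65-fold (1.94 to 7.46), at chr10:53032251-53033250 on day 7, with 16.2 and 59 tags. RefSeq places Cep85l over Pln, so regions of the window are not assigned to Pln alone.

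Cacna1c, the pore of the L-type channel, had the smallest differences in summed tags of the 4 windows on days 4 and 14, and its regions went in both directions. The border zone was higher in 10 and lower in 5 of 78 regions on day 4 (12.8% and 6.41%, against 12.2% and 7.37% of all). The counts were 1 and 21 of 54 on day 7 (1.85% and 38.9%, against 17.5% and 22% of all). On day 14 they were 7 and 9 of 91 (7.69% and 9.89%, against 13.4% and 6.75% of all). The day 4 shares are near those of all regions. Of the 37 day 4 regions with at least 110 tags in both libraries together, 1 (2.7%) was border zone-higher, against 5.09% of all such regions. The summed tags were 7113 and 7226 on day 4, a ratio of 0.984 (0.953 to 1.02) whose interval includes 1. They were 3737 and 5561 on day 7 (0.672, 0.642 to 0.704) and 31514 and 34464 on day 14 (0.914, 0.899 to 0.930). Of its 37 loci listed on all days, 21 (56.8%) were lower in the border zone on every day, against 44.4% of all loci.

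**Figure D5:**
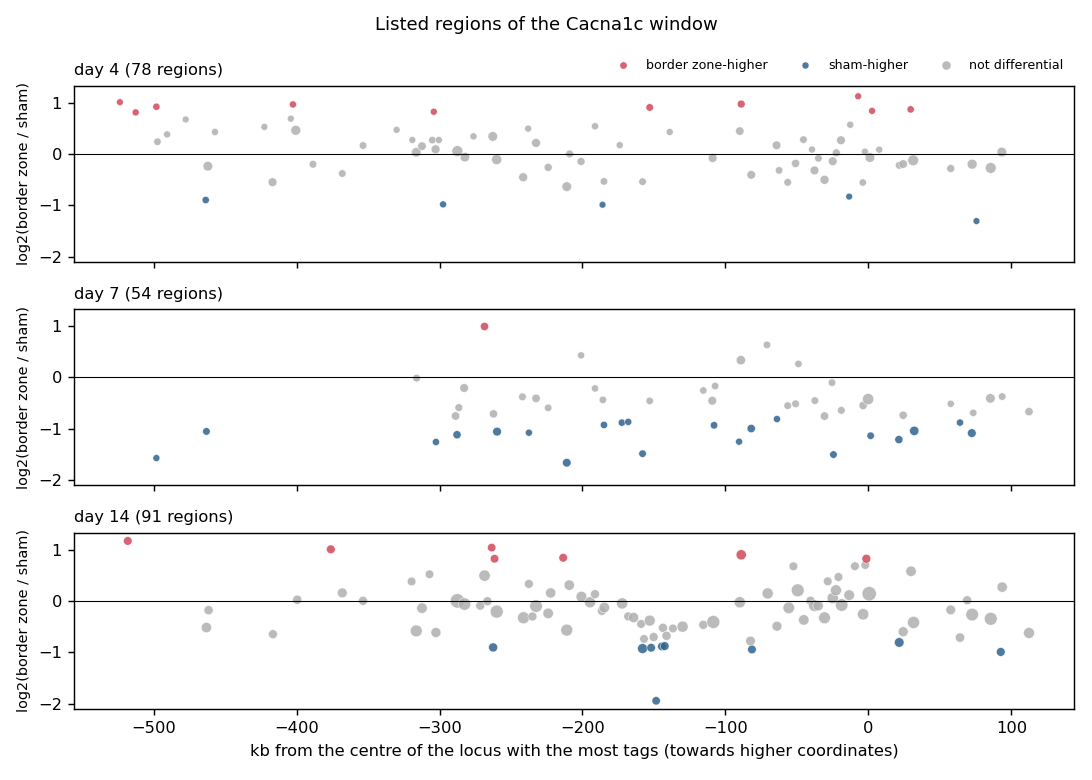
Each listed region of the Cacna1c window as log2 of border zone over sham tags, against its distance in kb from the centre of the locus with the most tags, with colours and point sizes as for Ryr2. On day 14, 34 of 91 regions lie above 0 and 57 below. On day 7, 49 of 54 lie below 0.

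Both directions were called among the 37 Cacna1c loci over the 3 days, 2 lower and 1 higher. At chr6:118846751-118847750 the border zone tags were 160, 56.6 and 522 against 249, 179 and 774 sham tags, and the border zone fell by 0.68 on the log2 scale (SE 0.20, edgeR adjusted p = 0.0282). At chr6:118899751-118900750 they were 44, 29.6 and 185 against 64, 83 and 352, and the border zone fell by 0.76 (SE 0.23, edgeR adjusted p = 0.0351). The higher locus was chr6:118967251-118969750, with 215, 242 and 924 border zone tags against 136, 225 and 731 sham tags. It rose by 0.56 on the log2 scale (SE 0.18, edgeR adjusted p = 0.0461). On day 7 the lists gave a part of this locus as sham-higher, although its summed tags were higher in the border zone. The border zone library was the higher one on each day at this locus and the lower one on each day at the other two.

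The locus with the most tags in the Cacna1c window, chr6:119056251-119060250, had 202, 448 and 1759 border zone tags against 212, 630 and 1525 sham tags, and its direction changed between days. Of the 37 Cacna1c loci listed on all days, 4 (10.8%) were sham-higher on at least 2 days, against 7.99% of all such loci. In addition to the called loci, 3 were listed as sham-higher on 2 days, in whole or in part. At chr6:118594251-118597250 the tags were 217, 39.1 and 437 in border zone and 276, 81 and 575 in sham. At chr6:118975251-118977250 they were 98, 68.7 and 258 against 130, 137 and 461. At chr6:119078751-119080250 they were 54, 54.9 and 165 against 63, 127 and 288. All 3 were lower in the border zone on each day. The largest sham-higher fold was 3.85-fold (2.63 to 5.81) at chr6:118909251-118910250 on day 14, with 43.9 and 169 tags. The largest border zone-higher fold was 2.25-fold (1.72 to 2.96) at chr6:118539751-118540750 on day 14, with 200.2 and 89 tags. RefSeq places Dcp1b over Cacna1c, and the window was not divided between them.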

How the data were processed

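The submitters' processing notes name mm9 and bedtools for every library, Bowtie2 for the day 4 libraries and BWA for the later ones. Their versions, the region caller and the treatment of duplicates are not stated in the labels or headers used here. Sham tags are deposited counts, per the file headers. Border zone tags are a deposited signal whose scale the authors matched to sham. Only the day 4 regions without a differential call hold border zone counts. Of 85106 scaled values, 97.6% were whole multiples of a factor of that day. These factors were 1, 1.0345 and 1.1014 (day 4), 1.17 and 1.35 (day 7), then 1.18 and 1.37 (day 14). The relative tolerance was 0.0006%. Another 1549 were sums of such terms and 458 were recovered only approximately. In the 4 windows, 6 of 402 were approximate. Listed ratios use the listed values, which are unscaled in day 4 regions without a differential call, and tests use whole tags. Listed regions hold only a part of a library's tags, so the depth is unknown. Listed day 4 regions without a differential call reached a fold of 1.93, since they are unscaled.

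Overlap by 1 bp or more joined regions of different days into loci, and 19733 of 60847 were listed on all 3 days. edgeR 4.0.16 (TMM, quasi-likelihood test, day as block, 2 residual degrees of freedom, FDR 5%) was fitted on all of them in R 4.3.3, after tests on simulated data. DESeq2 1.42.0, other size factors, other scalings, a fold of 2, a minimum of 110 tags on day 4 (added after the data were seen), and leaving out each day were tried. The SE is the log2 fold change divided by the square root of F. The border zone and sham library of a day pair by day. The p-values reflect the spread among these 6 libraries, which may be technical. Intervals are exact Clopper-Pearson and cover counting error only. Without molecular identifiers, tags are not counts of independent molecules.

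The loci named per window are the one with the most tags, each called locus, each one listed in 1 direction on at least 2 days, as a range for Ryr2, and the region with the largest fold per direction. Members, lists and tests were chosen with earlier results of these data known. Coordinates are mm9, counted from 1, except the promoters.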

Additional observations from a re-analysis of the deposited data

Results flagged for a closer look

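The border zone to sham ratio of summed tags in the Ryr2 window lay above 1 on day 4 and below 1 on days 7 and 14. On the log2 scale, day 7 minus day 4 was -1.502 and day 14 minus day 4 was -0.84. In the Casq2 window the same differences were -1.05 for day 7 minus day 4 and -0.45 for day 14 minus day 4. These differences between days were not tested, since each rests on 1 library per condition and day, and the day 4 interval of Casq2 includes 1 over regions of at least 110 tags.

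For 3 Ryr2 loci the change of the border zone effect between day 4 and the later days passed edgeR's interaction test with Benjamini-Hochberg adjustment. The test has 1 residual degree of freedom, from days 7 and 14, and assumes that the single pair of day 4 varies like those days. The log2 interactions were -1.52 at chr13:11631751-11645750, -1.48 at chr13:11655751-11660750 and -1.92 at chr13:12061751-12064750. At each of them the border zone library was higher than the sham library on day 4 and lower on days 7 and 14. The mouse line, isolation of nuclei and aligner also differ between day 4 and the later days, and these cannot be told apart from the day.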

How the results depend on the processing

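The day as a block carried the test over the 3 days. With no replicate block edgeR called 0 loci of the 4 windows in either direction, and 1 had an unadjusted p under 0.05. Leaving out each day gave 0 to 34 loci lower in the border zone, against 4 with all days, and 0 to 1 higher, against 1. The 34 came without day 4, and 0 came without day 7 or without day 14. The locus called higher lay in Cacna1c with all days and without day 4, and in Ryr2 without day 7. DESeq2 called 1 lower and 0 higher, and edgeR on total listed tags called 0 higher. With RLE size factors 3 were lower, the second Ryr2 locus being lost at an adjusted p of 0.0501. Both other size factors called the 3 Ryr2 interactions. DESeq2 called 0, giving an adjusted p of 0.0578 to 1 of them and none to the others, with log2 interactions of -1.47, -1.47 and -1.89. No interaction could be tested with a day left out. The filter at 100 tags kept all 19733 loci and the 500 bp overlap also gave 19733, so these settings did not vary the test.

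With a fold of at least 2, border zone-higher and sham-higher regions on day 4 numbered 16 and 1 in Ryr2, 2 and 1 in Cacna1c, and 22 and 3 in all windows. Casq2 then had 4 border zone-higher regions on day 4 and Pln 0 sham-higher. On day 7, 0 border zone-higher regions were left in Cacna1c and in all windows. On day 14 the counts were 1 and 15 in Ryr2, 3 and 1 in Cacna1c, 4 and 16 in all windows, and 0 sham-higher in Pln and in Casq2. Shares over all regions were not computed at a fold of 2, so these counts have no background beside them. Over day 4 regions with at least 110 tags in both libraries together, chosen after seeing the data, the counts were 12 and 0 in Ryr2, 2 and 0 in Casq2, 1 and 0 in Cacna1c, and 15 and 1 in all windows, and the Cacna1c ratio was 0.946. Over all such regions of day 4, 5.09% were border zone-higher and 1.69% sham-higher. With 1 factor per day, sham-higher Pln regions on day 14 numbered 4 of 7 by the median factor and 4 of 7 by listed totals, against 7.02% and 6.72% of all regions. Cacna1c had 4 of 91 border zone-higher on day 14 by the median factor, against 11.9% of all. Ryr2 had 1 of 166 sham-higher on day 4 by listed totals, against 6.55% of all.

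By the median factor the ratios of summed tags were 1.31 on day 4 and 0.491 on day 7 in Ryr2, 0.783 on day 7 in Pln, and 1.04, 0.744 and 0.898 on days 4, 7 and 14 in Cacna1c. By listed totals they were 1.33 and 0.465 in Ryr2 and 1.06 and 0.704 in Cacna1c, on days 4 and 7. Over loci listed on all 3 days the ratios were 1.16 in Ryr2, 0.904 in Casq2 and 0.936 in Cacna1c on day 4, and 0.749 in Pln and 0.895 in Cacna1c on day 14. The Casq2 value lies on the other side of 1 from its ratio over all regions, and so does the Cacna1c ratio on day 4 under both factors. The direction of every other ratio stayed as reported under these settings. A region whose larger value is under the tag minimum could not be called, and few-tag regions have wide intervals.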

Other observations

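A stretch within the Ryr2 window differed from the rest on day 14. It was chosen after its values were seen and was not tested. On day 4 the 13 regions at chr13:11869751-11904750 had a border zone to sham ratio of 1.33 (95% counting interval 1.25 to 1.41). On day 7 the ratio was 0.697 (0.532 to 0.909) over 3 regions at chr13:11874251-11883750, with 117 border zone and 168 sham tags. On day 14 all 6 regions at chr13:11872751-11905250 were above 1 and 3 were border zone-higher, with 1228 border zone and 749 sham tags, a ratio of 1.64 (1.49 to 1.81). Every other Ryr2 region of day 14 was below 1. The region with the largest border zone-higher fold of day 14 in the window, chr13:11899751-11900750, lies in it, with 159 border zone and 77 sham tags.

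In Cacna1c, a stretch at chr6:118898751-118917750 was likewise singled out after its values were seen. On day 4 its 2 regions gave a ratio of 1.14 (0.868 to 1.51), an interval that includes 1, and on day 7 its 2 regions gave 0.514 (0.370 to 0.707). On day 14 all 11 of its regions were below 1, 5 were sham-higher, and the summed tags were 1476 in border zone and 2433 in sham, a ratio of 0.607 (0.564 to 0.652).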
